A study of Mus musculus with 11 samples.

Results

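The genes described here are Igf1, which encodes insulin-like growth factor 1, and 6 genes for IGF binding proteins, Igfbp2, Igfbp3, Igfbp4, Igfbp5, Igfbp6 and Igfbp7. They were taken by symbol, and all 7 were found among the 21684 genes of the count table. RNA was sequenced from NIH/3T3, a long-established fibroblast line from mouse embryos, grown in calf serum and then held without serum for 24 h, a treatment that brings these cells to form a primary cilium. The 11 libraries were of 4 genotypes, 2 of WT and 3 each of the lines labelled Xap5 KO, Nono KO or Sox5 KO, and every group had the same starvation. Xap5 is the mouse gene Fam50a, whose product is a nuclear protein linked to mRNA splicing, Nono encodes an RNA-binding protein of paraspeckles, and Sox5 encodes a transcription factor of the SoxD group. The labels name a knockout line only by its gene and give neither the clone nor the way it was made, so a line's own history cannot be told apart from the loss of its gene. Nothing says that replicates were separate cultures, so the p-values measure only the spread between these libraries, which may be technical. The study set out to define the genes that change along a pathway from Xap5 through Nono to Sox5 in ciliating cells.

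IGF1 and IGF2 are secreted growth factors that bind the IGF1 receptor, a tyrosine kinase that signals through IRS adaptors to the PI3K-AKT and MAP kinase pathways. Most IGF in tissue fluid is held by IGF binding proteins, which keep it from the receptor, carry it or store it in the matrix, and secreted proteases such as PAPP-A free the ligand by cutting the binding protein. The binding proteins differ in their partners: IGFBP6 prefers IGF2, IGFBP5 also binds matrix, and IGFBP7 binds IGFs weakly. Fibroblasts in culture make both ligands and binding proteins, and serum is itself a source of IGFs that starvation takes away.

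The stretches of 250 bases before the annotated start are shown for 3 of these genes, picked by how their RNA changed. Igfbp5 had the widest range across genotypes, though its WT libraries lay 7.38-fold apart. Igfbp4 and Igfbp7 were higher in every knockout, and Igfbp7 was the abundant member that rose most in Xap5 KO. The stretches are RefSeq sequences of GRCm38.p6, 5′ to 3′ on the gene's strand, and capitals mark matches to 4 motifs on either strand. The motifs searched were a core SOX motif with the letters AACAAT, the TATA box with the letters TATAAA, the GC box with the letters GGGCGG, and the E-box with the letters CACGTG.
Igfbp5, chr1:72874866-72875115, minus strand: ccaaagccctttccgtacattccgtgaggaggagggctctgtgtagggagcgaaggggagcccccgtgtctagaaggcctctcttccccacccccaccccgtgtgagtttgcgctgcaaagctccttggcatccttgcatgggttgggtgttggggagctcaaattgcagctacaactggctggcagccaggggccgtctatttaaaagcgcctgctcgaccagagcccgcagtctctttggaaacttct
Igfbp4, chr11:99040994-99041243, plus strand: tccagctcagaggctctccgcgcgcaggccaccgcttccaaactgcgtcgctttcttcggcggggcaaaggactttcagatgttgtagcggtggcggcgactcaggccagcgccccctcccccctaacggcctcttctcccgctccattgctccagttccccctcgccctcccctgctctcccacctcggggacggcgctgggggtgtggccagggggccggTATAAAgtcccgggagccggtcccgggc
Igfbp7, chr5:77408046-77408295, minus strand: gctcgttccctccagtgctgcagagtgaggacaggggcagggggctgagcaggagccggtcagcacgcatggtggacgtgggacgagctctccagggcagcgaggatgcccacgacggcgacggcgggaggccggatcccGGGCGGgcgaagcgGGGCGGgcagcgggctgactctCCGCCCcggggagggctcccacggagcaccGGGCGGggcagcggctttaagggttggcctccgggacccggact
The window of Igfbp5 held no match to any of the 4 motifs. Igfbp4 had a single match, a TATA box beginning 28 bases before the start. Igfbp7 had 4 GC boxes, beginning 110, 96, 44 and 74 bases before the start, the last on the opposite strand. The SOX motif, present in 9.42% of the 32851 RefSeq promoter windows, was in none of the windows of the 7 genes, and none of the windows of Igf1, Igfbp3 and Igfbp5 held any of the 4 motifs. Over all windows, 12.4% held a TATA box, 32.7% a GC box and 6.02% an E-box. These matches describe letters only and show no binding.

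The libraries held 30205878 to 43498383 counts. All 10 fibroblast markers were above 10 counts in every library, and their summed level was 25370 to 25438 CPM (counts scaled to a TMM-adjusted library size) in WT, 19034 to 20322 in Xap5 KO, 49634 to 54369 in Nono KO and 20521 to 21048 in Sox5 KO. Summed epithelial markers reached at most 0.497 CPM, and those of macrophages and blood were highest in Nono KO, at 9.28 to 13.9 CPM against 2.65 to 2.88 in WT. Fam50a was lowest in Xap5 KO (7.75 CPM against 63.8 in WT) and Nono lowest in Nono KO (31.8 against 354.1), whereas Sox5 RNA was low in all 3 knockouts (13.7, 7.78 and 13.5 CPM against 47.8 in WT) and so did not set the Sox5 KO libraries apart.

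Of the 7 genes, 5 were expressed above the filter on low counts and could be tested. Against WT, 4 of these 5 were called higher in Xap5 KO and 1 lower, 4 were called higher in Nono KO and none lower, and 4 were called higher in Sox5 KO and none lower, where called means a p under 0.05 in the quasi-likelihood test of edgeR after Benjamini-Hochberg adjustment over 13332 genes. Among all tested genes, 23.2% were called higher and 22.3% lower in Xap5 KO, 23.5% higher and 25.1% lower in Nono KO, and 30.6% higher and 30.3% lower in Sox5 KO. The 5 genes had median log2 fold changes of 1.71, 0.98 and 0.91 in the same order of knockouts, beside 0.00, -0.02 and -0.01 over all tested genes. Both counts of none lower were also 0 at an unadjusted p under 0.05 and in DESeq2, checks that keep both WT libraries. With 1 WT library left out, the gene not called in each knockout changed direction. Igf1 in Sox5 KO had a log2 fold change of -0.82 without replicate 1 and 2.21 without replicate 2. Igfbp5 in Nono KO had -1.75 without replicate 2 and 1.08 without replicate 1. Neither count of none lower is therefore firm against the choice of WT library. Igfbp4 and Igfbp7 were called higher in all 3 knockouts, and the other 3 genes differed between the lines in direction or in call. All 3 comparisons use the same 2 WT libraries, so agreement between them is not 3 independent results. The share of all tested genes called higher in all 3 knockouts was not counted.

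**Figure D1:**
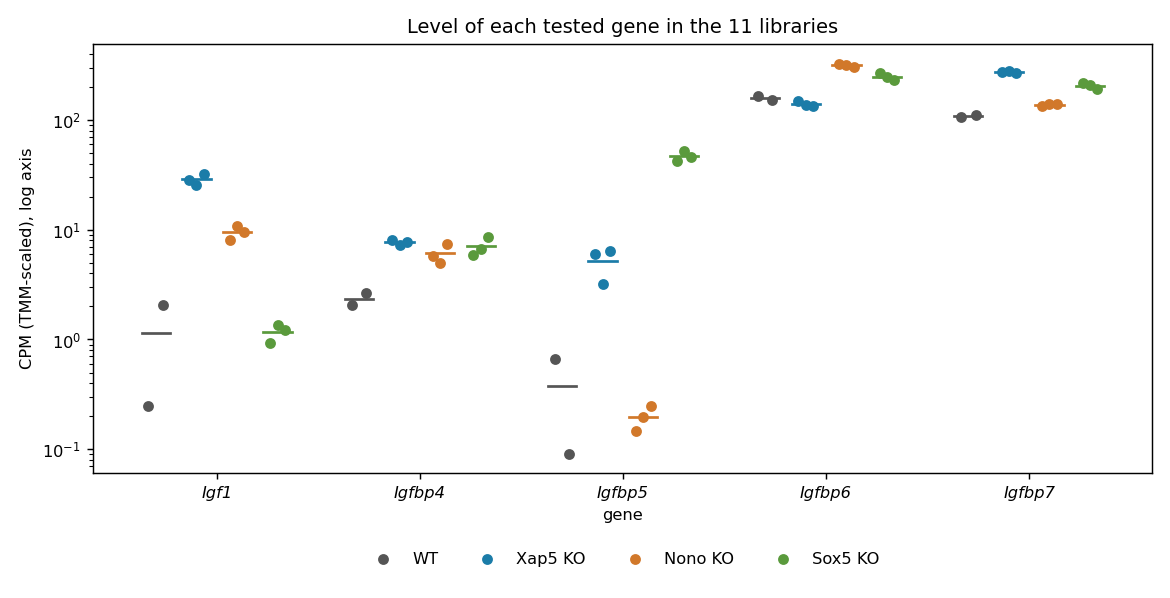
Level of the 5 tested genes in each library, in TMM-scaled CPM on a log axis; each point is 1 library, each bar the mean of its genotype. Igf1 is high in Xap5 KO (25.7 to 32.4 CPM) and Igfbp5 in Sox5 KO (42.1 to 52.1 CPM), and for both genes the WT libraries lie far apart.

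Igf1, the ligand (ENSMUSG00000020053, chromosome 10), was near the bottom of the measured range in WT and rose in Xap5 KO and Nono KO. The WT libraries gave 0.248 and 2.04 CPM, from 10 and 90 counts. The Xap5 KO libraries gave 28.4, 25.7 and 32.4 CPM, the Nono KO libraries 8.14, 10.9 and 9.61, and the Sox5 KO libraries 0.928, 1.36 and 1.21. Every Xap5 KO library was above every Nono KO library, every Nono KO library was above both WT libraries, and the Sox5 KO libraries all fell between the 2 WT values. In Xap5 KO the log2 fold change against WT was 4.62 (SE 0.553, adjusted p = 0.0002984), a 24.6-fold rise, and in Nono KO it was 3.03 (SE 0.559, adjusted p = 0.002462), an 8.17-fold rise, both from the edgeR test. In Sox5 KO the log2 fold change was -0.01, with a 95% interval from -1.50 to 1.49, and was not called (adjusted p = 0.9962). As in any bulk sample, more RNA per cell and more cells that express the gene cannot be told apart.

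The WT level of Igf1 rests on libraries that disagree. They were 8.23-fold apart, and only 57 of the 13332 tested genes (0.428%) were as far apart. Of 1676 genes with a mean of 10 to 100 counts in WT, 50 (2.98%) were as far apart, and the median ratio was 1.51. Without WT replicate 1 the log2 fold changes of Xap5 KO and Nono KO were 3.80 and 2.23, and that of Sox5 KO was -0.82. Without WT replicate 2 they were 6.83, 5.26 and 2.21. Such a fit leaves 1 WT library and so no spread within WT, and for Igf1 and Igfbp5 only its sizes are given. Calls that such a fit lost for other genes are given further on, where the 1 WT library is assumed to vary like the other groups. The rise in Xap5 KO and in Nono KO kept its direction with either WT library, and its size changed with the WT library used. For Sox5 KO the direction depended on which WT library was used.

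Igfbp5 (ENSMUSG00000026185, chromosome 1), a binding protein that also attaches to matrix, spanned the widest range. The WT libraries gave 0.670 and 0.0908 CPM, from 27 and 4 counts. The Sox5 KO libraries gave 42.1, 52.1 and 45.7 CPM, the Xap5 KO libraries 6.05, 3.19 and 6.41, and the Nono KO libraries 0.148, 0.195 and 0.249, from 6, 8 and 9 counts. The Sox5 KO libraries stood clear above all others and the Xap5 KO libraries came next, while the Nono KO libraries lay between the 2 WT values. Against WT the log2 fold change was 6.96 in Sox5 KO (SE 0.616, adjusted p = 3.066e-06), 125-fold. It was 3.80 in Xap5 KO (SE 0.626, adjusted p = 0.000417), 14.0-fold. In Nono KO it was -0.91 (SE 0.864, adjusted p = 0.4207) and was not called.

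For Igfbp5 too the WT libraries were far apart, 7.38-fold, but in the opposite order to Igf1: replicate 1 had the higher Igfbp5 and the lower Igf1. Among the 1676 genes of like WT count, 65 (3.88%) were as far apart. Without WT replicate 1 the log2 fold changes of Igfbp5 were 8.94 in Sox5 KO, 5.78 in Xap5 KO and 1.08 in Nono KO. Without WT replicate 2 they were 6.11, 2.95 and -1.75, so for Nono KO the direction depended on the WT library used. In annotation the neighbouring coding gene of Igfbp5, on the opposite strand, is Igfbp2, and it had 0 to 3 counts in every library, those of Sox5 KO included.

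**Figure D2:**
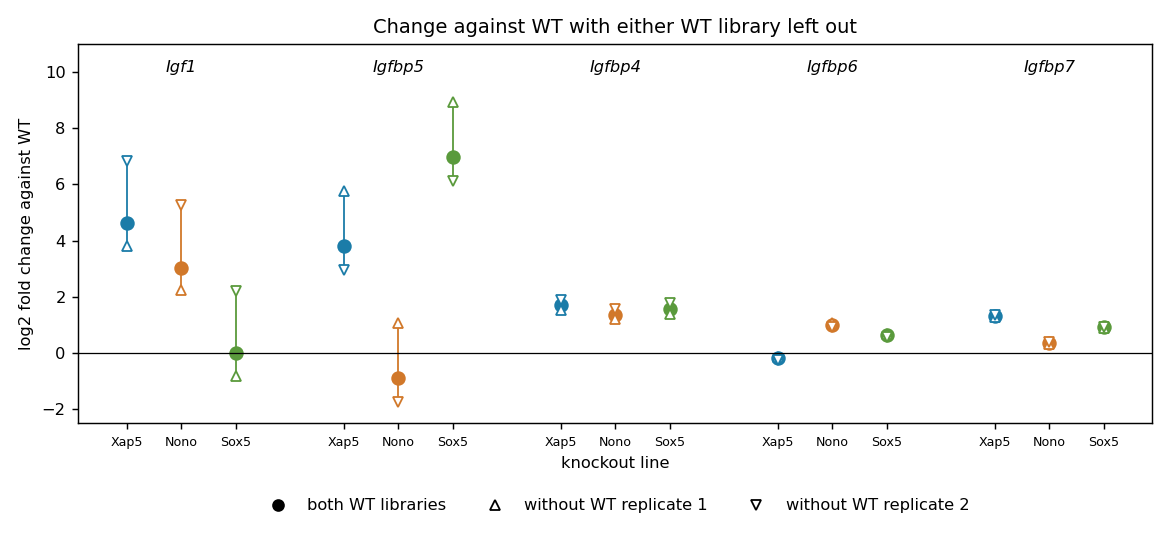
Log2 fold change against WT of the 5 tested genes in each knockout with both WT libraries (filled circles) and with either left out (open triangles); a line joins the 3 values. For Igf1 in Sox5 KO the values run from -0.82 to 2.21 and for Igfbp5 in Nono KO from -1.75 to 1.08, across the zero line, whereas Igfbp4, Igfbp6 and Igfbp7 move little.

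Igfbp4 (ENSMUSG00000017493, chromosome 11), known as an inhibitor of IGF action that PAPP-A cleaves, was higher in every knockout. The WT libraries gave 2.06 and 2.66 CPM. The Xap5 KO libraries gave 8.11, 7.30 and 7.73 CPM, the Nono KO libraries 5.80, 5.02 and 7.46, and the Sox5 KO libraries 5.94, 6.64 and 8.64. All 9 knockout libraries lay above both WT libraries, and the 3 knockouts overlapped one another. The log2 fold change was 1.71 in Xap5 KO (SE 0.224, adjusted p = 3.624e-06), 3.26-fold. It was 1.58 in Sox5 KO (SE 0.226, adjusted p = 4.915e-06), 2.99-fold, and 1.36 in Nono KO (SE 0.225, adjusted p = 4.606e-05), 2.58-fold. Of the coding genes on either side of Igfbp4, Top2a had 3621 to 4187 counts in WT, 7783 to 9212 in Xap5 KO, 4474 to 6842 in Nono KO and 3084 to 3383 in Sox5 KO. Tns4, on the other side, had 10 to 17 counts in WT and 146 to 239 in Xap5 KO, 21 to 62 in Nono KO and 103 to 144 in Sox5 KO. These neighbour counts are raw and not scaled to library size, so they do not give a direction between genotypes by themselves. The Sox5 KO libraries were smaller (30205878 to 32788225 counts) than those of WT (37795093 and 41468521).

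Igfbp6 (ENSMUSG00000023046, chromosome 15), whose product prefers IGF2 as its ligand, was higher in Nono KO and Sox5 KO and slightly lower in Xap5 KO. The WT libraries gave 166.3 and 153.5 CPM. The Nono KO libraries gave 327.3, 315.1 and 306.6 CPM, the Sox5 KO libraries 266.0, 249.0 and 230.3, and the Xap5 KO libraries 148.7, 136.3 and 134.4. No 2 genotypes overlapped, but the gap between the lowest WT and the highest Xap5 KO library was smaller than the spread within either group. The log2 fold change was 0.98 in Nono KO (SE 0.0673, adjusted p = 1.578e-10), 1.98-fold, and 0.64 in Sox5 KO (SE 0.0675, adjusted p = 6.597e-08), 1.55-fold. In Xap5 KO it was -0.19 (SE 0.0676, adjusted p = 0.02383), and this call was lost without WT replicate 1 (adjusted p = 0.2209), without Xap5 KO replicate 2 (adjusted p = 0.06565) and without Xap5 KO replicate 3 (adjusted p = 0.05771). The summed fibroblast markers were also highest in Nono KO, as given above, and whether they bear on Igfbp6 was not tested.

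Igfbp7 (ENSMUSG00000036256, chromosome 5), a secreted matrix protein that binds IGFs weakly, was higher in all 3 knockouts and highest in Xap5 KO. The WT libraries gave 107.2 and 111.3 CPM. The Xap5 KO libraries gave 272.4, 281.8 and 265.4 CPM, the Sox5 KO libraries 217.9, 206.6 and 192.6, and the Nono KO libraries 134.2, 140.7 and 140.1. The 4 genotypes did not overlap. The log2 fold change was 1.32 in Xap5 KO (SE 0.0611, adjusted p = 4.616e-13), 2.50-fold. It was 0.91 in Sox5 KO (SE 0.0613, adjusted p = 6.306e-11), 1.88-fold, and 0.34 in Nono KO (SE 0.0614, adjusted p = 0.0001013), 1.27-fold. Exons of Igfbp7 overlap those of Polr2b on the opposite strand, and since the handling of strand is not given in the sources used here, the count of Igfbp7 is uncertain to that extent. Polr2b, which encodes a subunit of RNA polymerase II, had 4111 to 4131 counts in WT and 3988 to 4728 in Xap5 KO, and 2653 to 3224 in Nono KO and 2434 to 2610 in Sox5 KO. Igfbp7 itself had 4319 to 4903 counts in WT, 10304 to 11579 in Xap5 KO, 5074 to 5779 in Nono KO and 6038 to 7045 in Sox5 KO. The counts of both genes are raw and not scaled to library size, and the Sox5 KO libraries were the smallest.

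Igfbp2 and Igfbp3, binding proteins that are abundant in the circulation, were at or near 0 in every genotype. Igfbp2 had 2 counts in Nono KO replicate 1, 3 counts in Sox5 KO replicate 3 and 0 in the other 9 libraries. Igfbp3 had 4 counts in WT replicate 2, 3 counts in Sox5 KO replicate 1 and 0 in the other 9. A count of 0 allows up to 3 counts, which is 0.0681 to 0.102 CPM in these libraries and covers counting error only. Both genes were below the filter, and when they were kept in, neither was called in any of the 6 comparisons. Igfbp1, the neighbour of Igfbp3, had 0 counts in all 11 libraries.

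**Figure D3:**
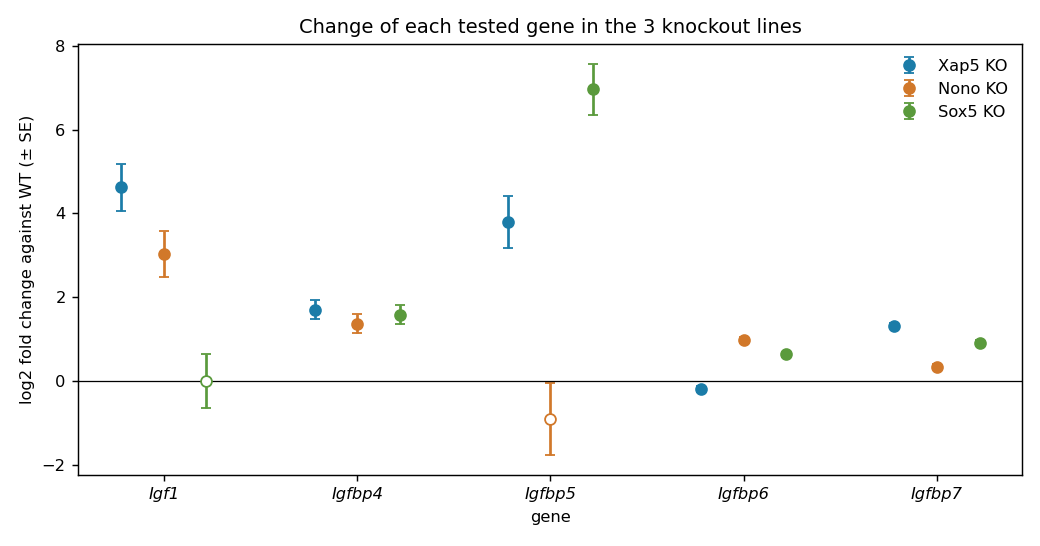
Log2 fold change against WT of the 5 tested genes in the 3 knockouts, with 1 SE on either side; filled points passed an adjusted p of 0.05 and open points did not. The open points are Igf1 in Sox5 KO and Igfbp5 in Nono KO, and the only filled point below zero is Igfbp6 in Xap5 KO, at -0.19.

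The knockouts were also compared with each other, which leaves the WT libraries out of the contrast. Between Nono KO and Xap5 KO, 1 of the 5 genes was called higher and 3 lower in Nono KO, beside 25.9% higher and 27.1% lower among all tested genes. Igf1 was 3.01-fold lower in Nono KO than in Xap5 KO (log2 fold change -1.59, SE 0.398, adjusted p = 0.01105), Igfbp5 was lower by -4.71 on the log2 scale (adjusted p = 6.007e-05) and Igfbp7 by -0.98 (adjusted p = 4.391e-12), while Igfbp6 was higher by 1.18 (adjusted p = 1.294e-12), all in the edgeR test. Between Sox5 KO and Xap5 KO, 2 genes were called higher and 2 lower in Sox5 KO, beside 30.4% and 31.1% of all tested genes. Igf1 was 24.7-fold lower in Sox5 KO than in Xap5 KO (log2 fold change -4.63, SE 0.509, adjusted p = 6.486e-05), and Igfbp5 was 8.94-fold higher (log2 fold change 3.16, SE 0.316, adjusted p = 2.841e-05). Igfbp6 was higher in Sox5 KO by 0.83 and Igfbp7 differed by -0.41.

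Between Sox5 KO and Nono KO, 2 genes were called higher and 2 lower in Sox5 KO, beside 32.6% and 30.9% of all tested genes. Igf1 was 8.21-fold lower in Sox5 KO (log2 fold change -3.04, SE 0.516, adjusted p = 0.0008279, edgeR) and Igfbp5 was higher by 7.87 on the log2 scale (95% interval 6.33 to 9.41). Igfbp6 differed by -0.35 and Igfbp7 by 0.57, both called. Igfbp4 was the tested gene that no knockout pair separated: its log2 differences were -0.34 for Nono KO against Xap5 KO (95% interval -0.74 to 0.05), -0.12 for Sox5 KO against Xap5 KO (-0.52 to 0.27) and 0.22 for Sox5 KO against Nono KO (-0.18 to 0.62). The first of these was called without Nono KO replicate 3 (-0.51, adjusted p = 0.04506).

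From the highest to the lowest level, Igf1 ran Xap5 KO, Nono KO, Sox5 KO and WT, with the last pair not separated. Igfbp5 ran Sox5 KO, Xap5 KO, WT and Nono KO, again with the last pair not separated. Igfbp6 ran Nono KO, Sox5 KO, WT and Xap5 KO, and the call between the last pair was lost without any 1 of 3 libraries, as given above. Igfbp7 ran Xap5 KO, Sox5 KO, Nono KO and WT. The orders of Igf1 and Igfbp5 put different knockouts first. Xap5 KO was first for Igfbp7 and below the other knockouts for Igfbp6.

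To compare genes with each other, levels were also scaled to transcript length, as TPM, from the longest annotated transcript. Igfbp6 and Igfbp7 made up nearly all binding protein mRNA in every genotype. In WT the 6 binding proteins summed to 701.6 ± 18.8 TPM (SD, n = 2), of which Igfbp6 was 61.0% and Igfbp7 38.7%. In Xap5 KO the sum was 958.3 ± 23.6 TPM (SD, n = 3), and the shares were reversed, at 35.3% Igfbp6 and 63.9% Igfbp7. In Nono KO the sum was 1030.8 ± 10.5 TPM (SD, n = 3), with 70.9% Igfbp6 and 28.7% Igfbp7, and in Sox5 KO it was 941.8 ± 52.3 TPM (SD, n = 3), with 55.2% and 42.4%. All 9 knockout libraries had a larger sum than both WT libraries. TPM took no TMM factors, so differences between genotypes are not on the scale of the CPM values and fold changes. Igfbp6, for example, had a mean of 428.4 TPM in WT and 520.2 in Sox5 KO, a smaller rise than the 1.55-fold of the edgeR fit. The order of the 3 knockouts by this sum may therefore differ on the CPM scale.

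**Figure D4:**
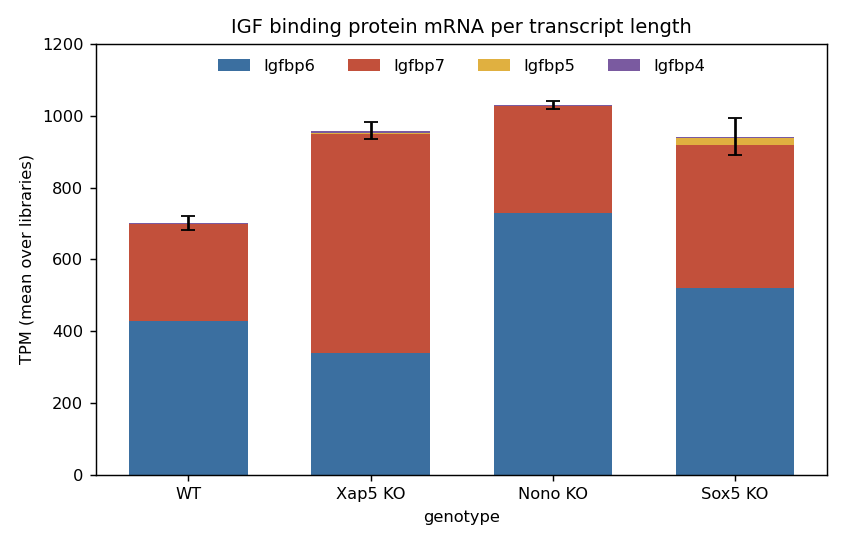
Mean TPM of the IGF binding protein mRNAs in each genotype, stacked by gene, with the SD of the sum over libraries as the error bar (n = 2 for WT, n = 3 for each knockout). No TMM factors were applied to TPM. Igfbp7 is the larger part in Xap5 KO (63.9%) and Igfbp6 in the other genotypes (55.2% to 70.9%).

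On the same TPM scale the remaining binding proteins were minor. Igfbp5 was 0.0265% of the binding protein sum in WT, 0.245% in Xap5 KO libraries, 0.0082% in Nono KO libraries and 1.93% in Sox5 KO libraries, so the member with the largest fold change was a small part of the total in every genotype. Igfbp4 was 0.262% of the sum in WT and 0.397% to 0.565% in the knockouts. The ligand Igf1 had a mean of 0.483 TPM in WT, 11.0 in Xap5 KO libraries, 3.48 in Nono KO libraries and 0.385 in Sox5 KO libraries.

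The second ligand, Igf2 (ENSMUSG00000048583, chromosome 7), is a fetal growth factor and an imprinted gene, and it was higher in all 3 knockouts. The WT libraries gave 3.42 and 0.635 CPM. The Xap5 KO libraries gave 47.9, 39.6 and 56.1 CPM, the Nono KO libraries 37.2, 35.7 and 41.5, and the Sox5 KO libraries 200.8, 243.9 and 246.1. Every knockout library was above both WT libraries, with log2 fold changes of 4.59 in Xap5 KO (adjusted p = 0.00013), 4.26 in Nono KO (adjusted p = 0.0001711) and 6.85 in Sox5 KO (adjusted p = 7.634e-06), edgeR. Like Igfbp5, Igf2 was higher in WT replicate 1, by 5.39-fold, and its log2 fold changes ran from 3.80 to 6.22, 3.49 to 5.90 and 6.07 to 8.49 when either WT library was left out. Exons of Igf2 overlap Gm49394 on the same strand and Igf2os on the opposite strand, so its count is uncertain. The mean TPM of Igf2 was 1.28 in WT, 27.3 in Xap5 KO libraries, 20.8 in Nono KO libraries and 113.6 in Sox5 KO libraries, above that of Igf1 in each knockout, whereas the WT libraries disagreed on which ligand was higher.

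All 4 tested receptor genes were called lower in Sox5 KO, beside 30.3% of all tested genes. Igf1r, the signalling receptor, had 257.2 ± 8.06 CPM in WT (SD, n = 2) and 150.3 ± 4.90 in Sox5 KO (SD, n = 3), a log2 fold change of -0.77. It was not called in Xap5 KO (0.01), and its call in Nono KO (-0.17) was lost without either WT library (adjusted p = 0.1869 and 0.05544). Igf2r, which clears IGF2 to the lysosome, fell by 0.68 on the log2 scale in Xap5 KO and by 0.45 in Sox5 KO libraries, and its call in Nono KO (-0.22) was also lost without either WT library (adjusted p = 0.07691 and 0.1142). Insr, the insulin receptor, fell by 0.33 on the log2 scale in Nono KO and, in Sox5 KO, by 0.55, and was not called in Xap5 KO (-0.11). Lrp1, an endocytic receptor, fell by 1.47 in Sox5 KO and by 0.91 in Xap5 KO and had a value of 0.12 in Nono KO that was not called by edgeR but was by DESeq2 (0.14, adjusted p = 0.02206).

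Of 17 tested genes for proteases that cut IGF binding proteins and for their inhibitors, 9 were called higher and 5 lower in Xap5 KO, 13 higher and none lower in Nono KO, and 11 higher and 5 lower in Sox5 KO, with median log2 fold changes of 0.29, 1.02 and 0.83. For this and the following lists the shares over all tested genes, given above, were 23.2% higher and 22.3% lower in Xap5 KO, 23.5% and 25.1% in Nono KO, and 30.6% and 30.3% in Sox5 KO, and the counts of 5 lower were near them. The count of 0 lower in Nono KO was 2 when libraries were scaled by their totals alone. Pappa2, a pappalysin that cuts IGFBP5 and IGFBP3, was at 17.9 ± 0.538 CPM in WT (SD, n = 2) and 321.7 ± 14.6 in Nono KO (SD, n = 3), a log2 fold change of 4.17. Pappa, the pappalysin that cuts IGFBP4, rose by 1.03 in Nono KO and fell by 2.42 in Sox5 KO on the log2 scale, from 168.1 CPM in WT to 343.6 and 31.4, and was not called in Xap5 KO (0.02). Stc2, a stanniocalcin that inhibits pappalysins, was at 2.83 ± 0.241 CPM in WT (SD, n = 2) and rose in all 3 knockouts, by 1.15, 2.41 and 2.55 on the log2 scale in that order.

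Stc1, the other stanniocalcin, had 0 counts in both WT libraries. Against a floor of 3 counts per library, the rise in its mean level was at least 27.3-fold in Xap5 KO libraries, at least 29.1-fold in Nono KO libraries and at least 70.9-fold in Sox5 KO libraries. Mmp3, a matrix metalloproteinase, also had 0 counts in WT and was at least 1380-fold, 327-fold and 943-fold higher in the same order, from 98.3, 23.3 and 67.2 CPM. Mmp9, a gelatinase, fell by 2.61 on the log2 scale in Xap5 KO, from 42.7 CPM to 6.98, and by 0.59 in Sox5 KO. The tested members of the list also include Htra1, a secreted serine protease, with log2 fold changes of 1.75, 2.62 and 2.29, and Adam12, a membrane protease known to cut IGFBP5, with 0.27, 2.61 and 1.88, again in that order; both genes were picked from the list after their values were seen.

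Of the 5 tested CCN genes, matricellular proteins once grouped with the binding proteins, 4 were called higher and 1 lower in Xap5 KO, 4 higher and 1 lower in Nono KO, and 3 higher and 1 lower in Sox5 KO. Their median log2 fold changes were 0.98, 1.82 and 1.11. A single gene called lower among 5 is near the 22.3%, 25.1% and 30.3% over all tested genes. Ccn1 was at 43.1 CPM in WT and 238.9, 199.6 and 188.1 CPM in the 3 knockouts in the same order, log2 fold changes of 2.47, 2.21 and 2.13. Ccn4 had log2 fold changes of 1.84, 2.31 and 1.92 in the same order, and Ccn5 had 0.98, 1.82 and 1.11, all called. Ccn3 was the member that fell, by 2.33, 3.62 and 1.07.

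Among 39 tested genes of IGF1 receptor signalling, 7 were called higher and 16 lower in Xap5 KO, 10 higher and 12 lower in Nono KO, and 8 higher and 27 lower in Sox5 KO, with median log2 fold changes of -0.08, -0.09 and -0.39. In Nono KO these counts were near the 23.5% higher and 25.1% lower over all tested genes, while in Sox5 KO 27 of 39 stood beside 30.3% lower over all of them. The Nono KO counts were 6 higher and 24 lower when libraries were scaled by totals alone, a scaling under which the median over all genes was -0.183 there. Irs1, the adaptor next to the receptor, was at 111.8 CPM in WT, 153.5 in Xap5 KO libraries, 289.9 in Nono KO libraries and 43.4 in Sox5 KO libraries, with log2 fold changes of 0.46, 1.37 and -1.36, all called. Grb14, an adaptor that inhibits the insulin receptor, rose by 1.93 in Nono KO and fell by 0.64 in Sox5 KO. Foxo3, a transcription factor that AKT holds out of the nucleus, fell by 0.47, 0.45 and 1.73 on the log2 scale, and Gsk3b, a kinase that AKT inhibits, fell by 1.26 in Sox5 KO.

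**Figure D5:**
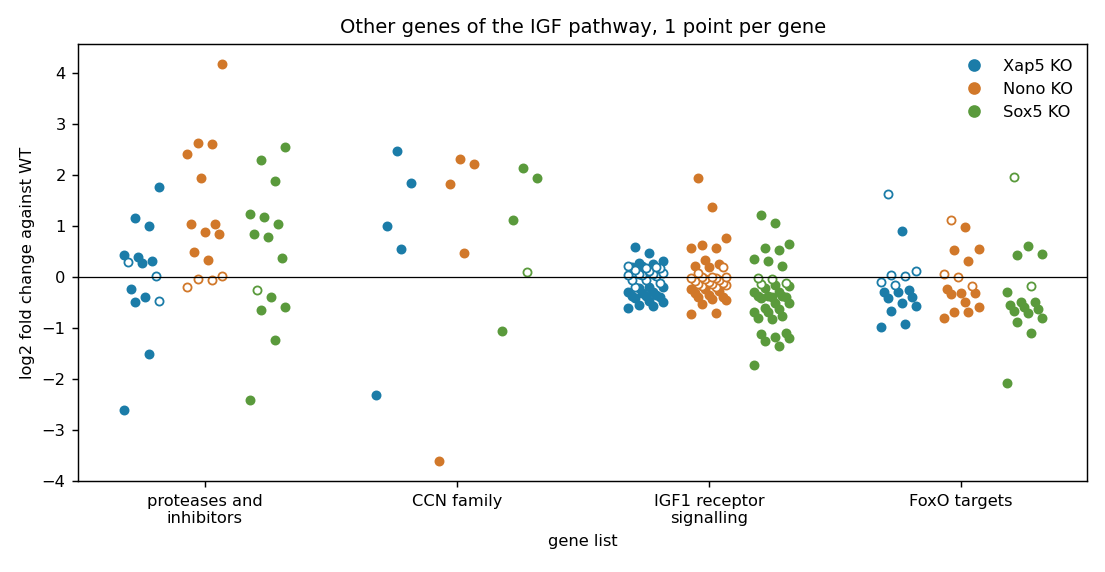
Log2 fold change against WT of the tested genes in 4 lists around the IGF pathway, 1 point per gene, grouped by knockout (Xap5 KO at the left of each list, Nono KO in the middle, Sox5 KO at the right); filled points were called and open points were not, and Stc1 and Mmp3, at 0 counts in WT, are left out. The highest point is Pappa2 in Nono KO at 4.17, the lowest is Ccn3 in Nono KO at -3.62, and 27 of the 39 signalling genes are called lower in Sox5 KO.

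Of 17 genes that FoxO factors are known to activate, a list that shares Insr and Irs2 with those above, 1 was called higher and 10 lower in Xap5 KO, 4 higher and 9 lower in Nono KO, and 3 higher and 12 lower in Sox5 KO, with medians of -0.29, -0.24 and -0.55. Over all tested genes 22.3%, 25.1% and 30.3% were called lower, and the 4 higher in Nono KO match the 23.5% over all genes. Txnip, an inhibitor of thioredoxin and of glucose uptake, fell by 0.99, 0.70 and 2.08 on the log2 scale, and Irs2, a second receptor adaptor, fell by 0.39, 0.31 and 1.10. Of 8 genes of the growth hormone axis, the main inducer of Igf1 in liver, none was called higher in any knockout, and 3, 3 and 5 were called lower in the 3 knockouts, in the order used above, counts that fell to 1 in Xap5 KO and 1 in Nono KO without WT replicate 1, and to 1 in Xap5 KO without WT replicate 2 or Xap5 KO replicate 3. In Nono KO, 6 were called lower with library totals alone, and 1 was called higher when only WT and Nono KO were fitted. Socs1, a feedback inhibitor of cytokine receptors, fell by 0.97, 0.64 and 1.57, and Cish, another, had a value of -1.25 in Nono KO whose call was lost without WT replicate 1 (adjusted p = 0.08919). The IGF2 mRNA-binding proteins, which bind RNA and not IGF, gave 2 higher and none lower of 3 in Xap5 KO, 1 higher and 1 lower in Nono KO, and none higher and 2 lower in Sox5 KO. In Nono KO they gave none higher and 2 lower with library totals alone, and without WT replicate 2 they gave none higher there and 1 higher in Xap5 KO. The other tested genes of the binding protein list, Igfals and Kazald1, gave 1 call each in Xap5 KO and Nono KO, where Kazald1 was lower by -0.64 and -0.50 on the log2 scale, and none in Sox5 KO. In Nono KO this call was lost without WT replicate 1. Each count of 0 given for a list was also 0 at an unadjusted p under 0.05 and in DESeq2.

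Across the 11 libraries, the 5 tested genes did not follow a single pattern. Pearson's r of log2 CPM was 0.77 between Igfbp4 and Igfbp7, 0.71 between Igfbp5 and Igfbp7, 0.59 between Igf1 and Igfbp4, -0.20 between Igf1 and Igfbp5, and -0.38 between Igfbp6 and Igfbp7. These values describe 4 genotypes more than 11 independent points and carry no test. The 3 genes most like each member on the same measure were named. For Igf1 these were Cyp3a41b (r = 0.978), Fhl3 (0.970) and Myo10 (0.967), and for Igfbp4 they were Gm7592 (0.970), Mmut (0.970) and Dpysl3 (0.960). For Igfbp5 they were Slc2a6 (0.990), Ncf4 (0.981) and Atf6b (0.980), and Ncf4 went from 0.120 CPM in WT to 23.2 in Sox5 KO. For Igfbp6 they were Mrgprf (0.991), Podnl1 (0.987) and Dcn (0.985), and Dcn, which encodes the matrix proteoglycan decorin, was at 763.4 CPM in WT, 535.2 in Xap5 KO libraries, 1718.5 in Nono KO libraries and 1206.1 in Sox5 KO libraries. For Igfbp7 they were St3gal5 (0.985), Zscan4c (0.981) and Abhd17c (0.978). Cyp3a41b and Zscan4c belong to families of near-identical genes, so their counts are uncertain.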

How the data were processed

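The deposited table gave a gene ID, a symbol and 1 column per library. Its values were estimated counts in whole numbers, made with tools that include HISAT2 2.1.0, StringTie 1.3.3b and DESeq2 1.12.4 and the builds GRCm39 and mm39 per the submitters' processing notes, which give no roles or order. A value of 2 was found 3302 times against 857 for a value of 1, and whether this comes from rounded estimates or from mates of a read pair counted separately was not tested. If from mates, the counts stand for fewer fragments. The annotation and the handling of strand are not given in the sources used here. The only coordinates printed are those of the promoter windows, in GRCm38.p6. Coordinates of the genes are left out, because the annotation used here, GENCODE M21 (GRCm38), is of another build. It matched 21540 of 21684 gene IDs, including all 7 members, and served for chromosomes, neighbours, exon overlaps and transcript lengths. RefSeq promoter windows were matched by symbol for all 7.

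edgeR 4.0.16 (R 4.3.3) fitted all 11 libraries together, using 1 mean per genotype, TMM scaling, a minimum count of 10 and minimum total of 15, a robust quasi-likelihood fit and no replicate block. This left 13332 genes. P-values were adjusted by Benjamini-Hochberg over all of them and called under 0.05. SE is a Wald-type error from the quasi-likelihood fit. The fit was also run on simulated counts with a common spread for all genes. That run does not bear on genes whose WT libraries lie far apart, such as Igf1 and Igfbp5. The biological coefficient of variation was 10.6% and tested genes had a median of 1002 counts. Alternatives were DESeq2 1.42.0, other scalings, filters and thresholds, 2-group fits, a replicate block and leaving out each library.

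The members and gene lists were chosen with earlier results of these data known. Named were all members, the 3 genes most like each, the targeted genes, Igf2, Igf1r, Igf2r and Insr, and per list and knockout up to 3 called genes with the largest change of at least 2-fold. Genes beyond this rule were chosen after their values were seen: Pappa in all 3 knockouts, Htra1, Adam12, Kazald1, Igfals, Top2a, Tns4, Polr2b, and other knockouts' values of named genes.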

Additional observations from a re-analysis of the deposited data

How the results depend on the processing

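Of 593 values for the 5 tested genes over the alternatives, 574 kept their side of the threshold, and the called ones among them kept their direction. Values called in neither fit could change sign. Igfbp5 in Nono KO, for example, was -0.91 with all libraries and 1.08 without WT replicate 1. At an adjusted p under 0.01, Igfbp6 in Xap5 KO (-0.19) and Igf1 between Nono KO and Xap5 KO (-1.59) were not called. When a change of at least 2-fold was required as well, the calls lost by this requirement were Igfbp6 against WT (-0.19 for Xap5, 0.98 for Nono and 0.64 for Sox5), Igfbp7 against WT in Nono KO (0.34) and Sox5 KO (0.91), Igfbp7 between Nono KO and Xap5 KO (-0.98), Igfbp6 (0.83) and Igfbp7 (-0.41) between Sox5 KO and Xap5 KO, and Igfbp6 (-0.35) and Igfbp7 (0.57) between Sox5 KO and Nono KO. That left 2 called genes in Nono KO and 2 in Sox5 KO against WT, 2 between Sox5 KO and Xap5 KO and 2 between Sox5 KO and Nono KO. Over all genes it left 756 higher and 614 lower in Xap5 KO, 867 and 624 in Nono KO and 1106 and 1183 in Sox5 KO against WT, 775 and 699 for Nono KO against Xap5 KO, 941 and 1054 for Sox5 KO against Xap5 KO, and 986 and 1283 for Sox5 KO against Nono KO. With 1 library left out, log2 fold changes ran from -0.26 to -0.15 for Igfbp6 in Xap5 KO, from -0.82 to 2.21 for Igf1 in Sox5 KO, which reversed without WT replicate 2, from -1.75 to 1.08 for Igfbp5 in Nono KO and from -0.51 to -0.22 for Igfbp4 between Nono KO and Xap5 KO. Where 1 WT library is left, it is assumed to vary like the other groups. Igfbp5 has no value under a minimum of 10 counts in every library, since it had 4 in a WT library. With the union of exons as length, TPM values were larger for Igfbp6 and Igfbp7 (541.8 and 340.4 in WT), and Igfbp7 led only in Xap5 KO, as before.

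Replicate numbers paired the samples weakly if at all. Same-numbered libraries of different genotypes had deviations correlated between -0.02 and 0.05 over 15 pairs (mean 0.0126). Those with different numbers had -0.05 to 0.02 over 30 pairs (mean -0.00628). Deviations were taken from the mean of each genotype and cancel within it. The values for different numbers therefore largely follow from those for the same number and are no separate comparison. With a replicate block, all 30 comparisons of the 5 genes kept their call; Igf1 in Xap5 KO, for example, had 4.72. The WT levels of Igf1 and Igfbp5 rest on 10 to 90 and 4 to 27 counts and on 2 libraries that disagree; the cause was not tested.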
